A study of Mus musculus with 2 samples.

Results

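The genes described here are 6 mouse miRNA hairpins whose precursors are known to be made without the nuclease Drosha. They were chosen by name, for their known biogenesis and by no threshold on these counts, although earlier results of these data were known at the time. They make up 6 of the 2202 miRNA genes counted. Mir320 and Mir484 are promoter-proximal hairpins, and Mir877, Mir1224, Mir702 and Mir1981 are mirtrons. They were measured by microRNA sequencing of total RNA from adrenal glands of B6CASTF1/J females aged 2 months, which are F1 hybrids of the B6 and CAST strains. There was a single group, with no treatment named and 2 biological replicates. Each replicate is labelled with its own female number, but the donor label is the same for both. The files held no second condition, so the comparisons were the levels of the genes within the gland and the spread between the libraries. The libraries held 2839732 and 2280028 sense-strand gene counts in replicates 1 and 2, so a single count was worth 0.352 and 0.439 counts per 1000000 gene counts (CPM). Means are given ± SD with n = 2.

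Most miRNA hairpins are cut out of a long primary transcript in the nucleus by the Microprocessor, which consists of Drosha and its partner Dgcr8, and are then trimmed by Dicer in the cytoplasm. Mirtrons skip the first cut: the spliceosome releases a short intron, the lariat is opened, and the intron itself folds into the hairpin that Dicer receives. The precursors of Mir320 and Mir484 are instead short transcripts made close to a promoter, whose 5' end carries a cap. They too go on to Dicer. The tables counted reads per hairpin gene and did not measure the route of processing.

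The sequences show how the mirtrons sit in their host introns. RefSeq sequences (GRCm38.p6, the assembly behind mm10) were matched for 5 of the 6 genes, all but Mir320, at the same positions as the GENCODE M21 genes. In the mirtron hairpins, written 5' to 3', capitals mark the first 2 bases of the host intron and, where the hairpin reaches it, the last 2 bases.
Mir877: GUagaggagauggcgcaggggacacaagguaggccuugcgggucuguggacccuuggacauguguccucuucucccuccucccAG
Mir1224: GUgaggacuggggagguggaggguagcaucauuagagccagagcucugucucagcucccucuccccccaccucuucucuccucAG
Mir1981: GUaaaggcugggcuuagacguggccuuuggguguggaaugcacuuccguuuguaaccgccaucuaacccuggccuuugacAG
Mir702: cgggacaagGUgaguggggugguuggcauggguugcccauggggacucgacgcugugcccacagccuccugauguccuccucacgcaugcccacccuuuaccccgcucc
The first 3 open on the GU of a splice donor and close on the AG of a splice acceptor. In Mir484, capitals mark the mature miRNA, which starts at base 5 of the hairpin.
Mir484: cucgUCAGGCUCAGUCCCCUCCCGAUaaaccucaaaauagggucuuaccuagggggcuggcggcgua

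The hairpins of Mir877, Mir1224 and Mir1981 coincided with an annotated intron to the base. Mir877 (chr17:35960730-35960814, minus strand) is an intron of 85 bases in Abcf1, which encodes a translation factor of the ABC family. Mir1224 (chr16:20604452-20604536, plus strand) is an intron of 85 bases in Vwa5b2. Mir1981 (chr1:184822407-184822488, minus strand) is an intron of 82 bases in Marc2, which encodes a mitochondrial molybdenum-containing reductase. Mir702 (chr5:136991433-136991541, plus strand) was the exception. Its annotated hairpin starts 9 bases before an intron of 102 bases in Plod3, a collagen lysyl hydroxylase gene, and ends 2 bases before that intron does. All coordinates are in mm10 and counted from 1.

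The mature 5p miRNA started on base 1 of the intron in all 4 mirtrons, Mir702 included. The 3p miRNA ended on the last base of the intron in Mir1224, 1 base before it in Mir877 and 2 bases before it in Mir1981 and Mir702. The 5p seeds (bases 2 to 8, in capitals) therefore lie over splice donor sequence.
mmu-miR-877-5p: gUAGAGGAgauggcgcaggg
mmu-miR-1224-5p: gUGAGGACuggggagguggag
mmu-miR-702-5p: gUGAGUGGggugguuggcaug
mmu-miR-1981-5p: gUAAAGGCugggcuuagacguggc
No pair of the 9 mature miRNAs of these genes shared a seed. Among the 1678 mature miRNAs with a RefSeq sequence and a counted gene, the single seed match was between mmu-miR-702-5p and mmu-miR-3102-5p.
mmu-miR-3102-5p: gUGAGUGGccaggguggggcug
These are identical over their first 8 bases. Mir3102 is itself an intron, of 104 bases in Arhgef17, and its 5p miRNA also starts on base 1.

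**Figure D1:**
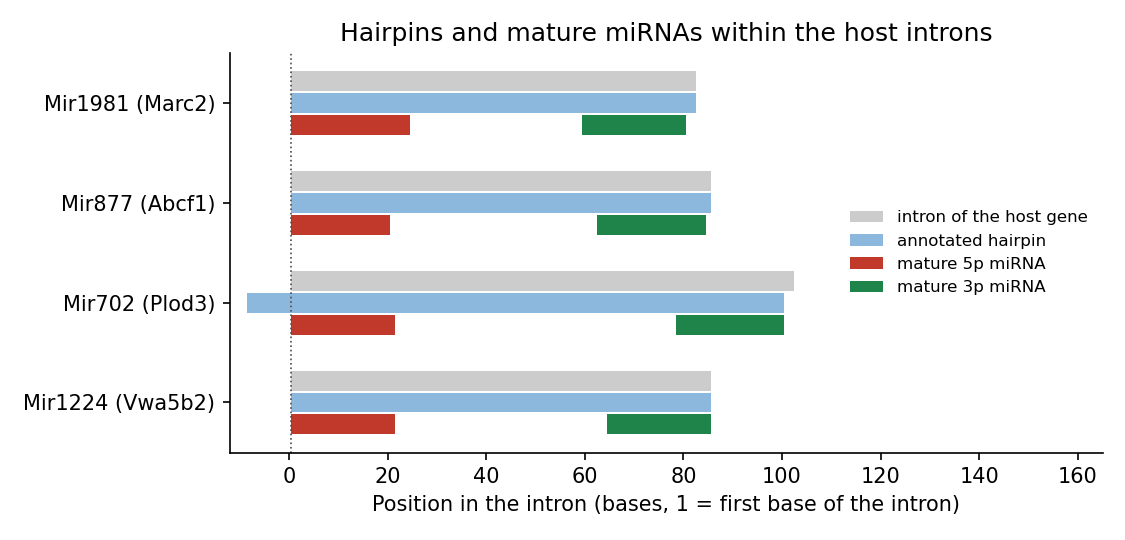
Position of the annotated hairpin (blue) and of the mature 5p (red) and 3p (green) miRNAs in the host intron (grey) for the 4 mirtrons, in bases from the first base of the intron. The hairpins of Mir1981, Mir877 and Mir1224 cover the whole intron, whereas that of Mir702 starts 9 bases before it and stops 2 bases short of its end.

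The promoter-proximal hairpins lie within no annotated intron on their own strand. Mir320 (chr14:70443510-70443591, plus strand) begins 63 bases upstream of the start of Polr3d, a subunit gene of RNA polymerase III, which runs on the opposite strand. Mir484 (chr16:14159626-14159692, plus strand) begins 359 bases upstream of the nearest start of Marf1, which encodes an RNA-binding protein known for its part in oocyte meiosis and also runs on the opposite strand. A longer Marf1 transcript, which starts farther upstream, has an exon that overlaps Mir484 on that strand. None of the 6 genes had a count on the strand opposite to it in either library, which allows up to 3 counts there. Their counts without regard to strand were equal to the sense counts. No stretch of 20 bases in the 5 hairpins with a sequence occurred in another RefSeq hairpin of a counted gene on either strand, nor on the transcript strand of another GENCODE gene.

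All 6 genes were detected, with at least 10 counts in each library, as were 342 of the 2202 miRNA genes (15.5%). Mir320 was the most abundant, followed by Mir484, Mir1981, Mir877, Mir702 and Mir1224. Each step in that order was present in both libraries and was larger than the sum of the neighbouring SDs. Reads were counted per hairpin, which leaves its 5' and 3' arms unseparated, and in bulk tissue fewer cells of a type and less RNA per cell cannot be told apart.

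Mir320 is a miRNA whose precursor yields a product from its 3' arm. It had 13748 counts in replicate 1 and 17694 in replicate 2, or 4841 and 7760.4 CPM, with a mean of 6301 ± 2064 CPM. It ranked 35 and 28 among all miRNA genes. Mir484 had 3101 and 4452 counts, or 1092 and 1953 CPM (1522 ± 609 CPM), and ranked 78 and 62. Mir320 was 4.43 times as high as Mir484 in replicate 1 and 3.97 times as high in replicate 2.

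The mirtrons were lower. Mir1981 led them with 1233 counts in replicate 1 and 1367 in replicate 2 (434 and 599.6 CPM, mean 517 ± 117 CPM). Mir877 had 383 and 388 counts (135 and 170.2 CPM, mean 153 ± 25.0 CPM). Mir702 had 118 and 82 counts (41.6 and 36.0 CPM, mean 38.8 ± 3.95 CPM). Mir1224 had 18 and 12 counts (6.34 and 5.26 CPM, mean 5.80 ± 0.761 CPM) and ranked 331 in replicate 1 and 336 in replicate 2. The exact 95% interval of its level was 3.76 to 10.02 CPM in replicate 1 and 2.72 to 9.19 CPM in replicate 2, so counting error alone covers the distance between the libraries.

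**Figure D2:**
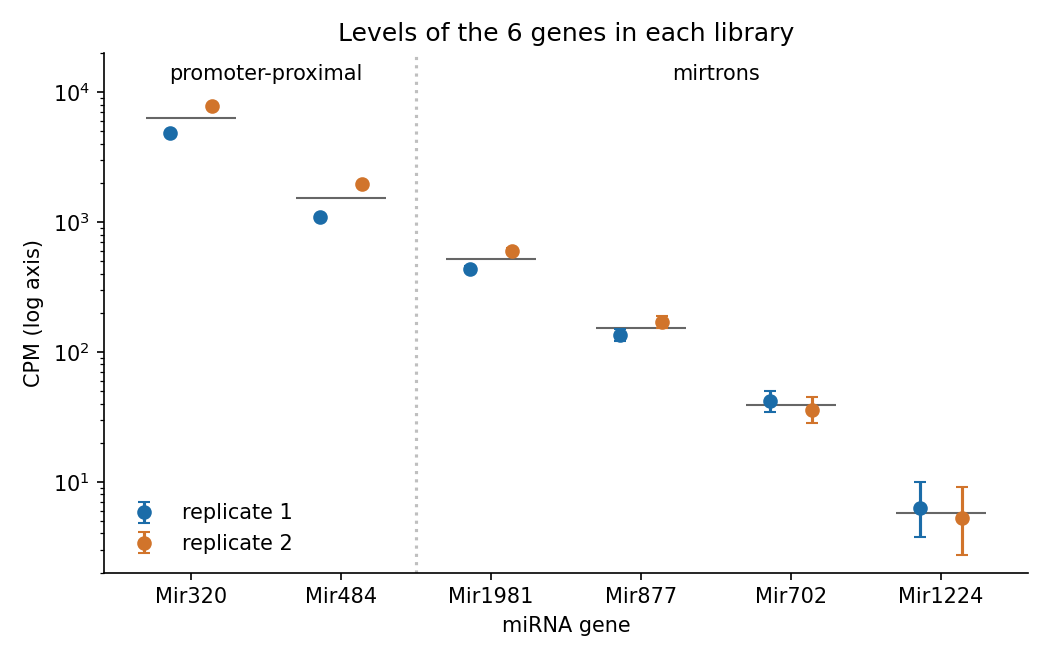
CPM on a log axis for each of the 6 genes in replicate 1 (blue) and replicate 2 (orange), with exact 95% intervals that cover counting error only and a grey line at the mean. The genes fall in the same order in both libraries, and the replicate 2 point lies above the replicate 1 point for Mir320, Mir484, Mir1981 and Mir877 and below it for Mir702 and Mir1224.

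Together the 6 genes held 0.655% of the gene counts in replicate 1 (Clopper-Pearson 95% interval 0.646 to 0.664) and 1.05% in replicate 2 (1.04 to 1.07). Mir320 made up 73.9% and 73.7% of these counts, Mir484 16.7% and 18.6%, and the 4 mirtrons together 9.42% and 7.71%. The ratio of replicate 1 to replicate 2 for the whole set, 0.622, was therefore largely that of Mir320. Intervals cover counting error of the reads only. No molecular identifiers are stated, so copies of 1 molecule cannot be told apart and the intervals may be too narrow.

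Between the libraries, 4 of the 6 genes were lower in replicate 1 than in replicate 2, and the other 2 were slightly higher. The ratio of replicate 1 to replicate 2 was 0.559 for Mir484 (exact 95% interval 0.534 to 0.586) and 0.624 for Mir320 (0.610 to 0.638). It was 0.724 for Mir1981 (0.670 to 0.783) and 0.793 for Mir877 (0.686 to 0.915). For Mir702 it was 1.16 (0.864 to 1.55) and for Mir1224 1.20 (0.549 to 2.74), differences that were not detectable at this depth. Summed over the promoter-proximal pair the ratio was 0.611 (0.599 to 0.623), and over the mirtrons it was 0.761 (0.712 to 0.813).

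None of the 6 genes passed the rule of an adjusted p under 0.05 and at least a 2-fold difference, by an exact two-sided binomial test of the 2 libraries with Benjamini-Hochberg adjustment over 369 genes. In the same comparison 69 of the 369 genes passed (18.7%). Without the fold threshold 4 of the 6 passed, Mir320, Mir484, Mir1981 and Mir877, each lower in replicate 1. Without that threshold 62.6% of all genes tested passed and 35.8% were lower in replicate 1, and 4 of the 6 had an unadjusted p under 0.05, as did 64.5% of all genes tested. At 1.5-fold 2 of the 6 passed, Mir320 and Mir484, beside 32.5% of the genes tested and 17.6% that were lower in replicate 1. The 1.5-fold call of Mir320 rested on the scaling, since its ratio was 0.676 with TMM scaling and 0.699 with median-of-ratios scaling, both short of 1.5-fold. The adjusted p by this exact test was 4.61e-138 for Mir484, 8.07e-16 for Mir1981 and 0.00252 for Mir877, and it was too small for double precision for Mir320. This is a test of 1 library against the other and reflects counting error alone. With 1 sample on each side no test over samples was possible.

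The sizes of the differences were set beside those of all genes tested. The median size of the log2 ratio over the 369 genes was 0.45. Mir484, at a log2 ratio of -0.84, differed more than 75.6% of the genes tested, and Mir320, at -0.68, more than 68.0%. Mir1981 (-0.47) lay close to the middle, above 52.3% of the genes, and Mir877 (-0.34), Mir1224 (0.27) and Mir702 (0.21) lay above 40.7%, 32.8% and 25.7%. The median log2 ratio was -0.40 over the 6 genes and -0.07 over the 369 genes. TMM and median-of-ratios scaling moved the log2 ratio of every gene, and so the median, by 0.12 and 0.16. They gave -0.72 and -0.67 for Mir484 and -0.57 and -0.52 for Mir320. Under these scalings Mir877 had an adjusted p of 0.0584 and 0.155 by the exact binomial test, so its call without a fold threshold rested on the scaling.

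**Figure D3:**
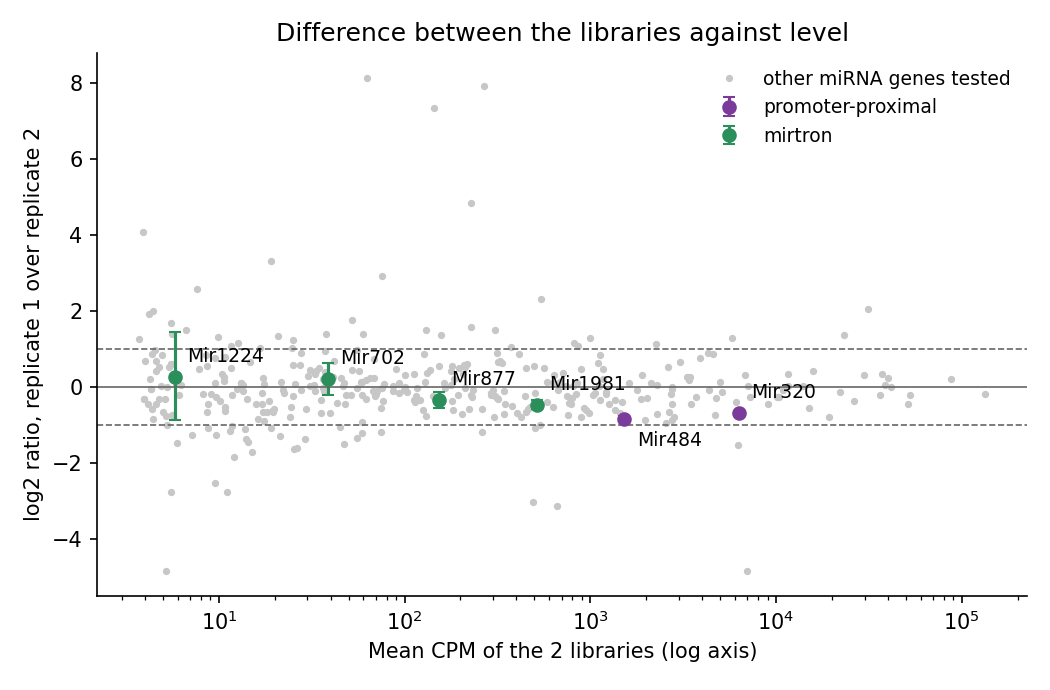
Log2 ratio of replicate 1 over replicate 2 against mean CPM (log axis) for the genes tested. Mir452, with 21 counts in replicate 1 and 0 in replicate 2, has no finite ratio and is not drawn. Promoter-proximal genes are in purple and mirtrons in green, both with exact 95% intervals, and dashed lines mark 2-fold. All 6 genes lie between the dashed lines, and Mir484 and Mir320 lie lowest of them at -0.84 and -0.68.

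Some marker lists of cell types differed between the same libraries, most of all the erythroid and muscle lists. Erythroid miRNAs, 3 of 3 detected and 2 of 3 lower in replicate 1, summed to 643 CPM in replicate 1 and 14488 CPM in replicate 2. Skeletal and heart muscle miRNAs summed to 953 CPM in replicate 1 and 4.39 CPM in replicate 2. Of the 9 muscle genes, Mir133a-1, Mir133a-2 and Mir133b were at 0 in both libraries and the other 6 were higher in replicate 1. Among these 6, Mir1a-1 and Mir1a-2 had only 1 and 2 counts in replicate 1 and 0 in replicate 2. White cell miRNAs summed to 1331 CPM in replicate 1 and 1051 CPM in replicate 2, with 2 of 4 genes higher in each. In replicates 1 and 2, Mir223 was at 133 and 17.5 CPM and Mir150 at 660 and 467 CPM. Mir142 was at 210 and 213 CPM and Mir155 at 329 and 354 CPM. The liver miRNA Mir122 was at 3721 and 2358 CPM, the endothelial Mir126a at 43203 and 59463 CPM, and the kidney list, 5 of 6 higher in replicate 1, at 188 and 139 CPM. Within the kidney list Mir200b had the largest difference, at 34.9 and 3.51 CPM, and Mir194-1 alone was lower in replicate 1. The neuroendocrine and neuronal list summed to 44038 and 41419 CPM in replicates 1 and 2. Mir375 alone held 39421 and 37780 CPM of it, and of its 13 genes 4 were higher in replicate 1, 3 were lower and the 6 Mir124a and Mir9 genes were at 0 in both. Mir124a, Mir9, Mir133a and Mir1a are multi-copy genes whose multimapping reads are assigned to no gene. Their counts at or near 0 therefore do not show that the miRNA is absent. Whether reads of Mir133b were lost in the same way was not tested, so its count of 0 does not show absence either. The part of these lists in the differences of Mir320, Mir484, Mir1981 and Mir877 was not tested. No miRNA gene was taken as defining the adrenal cortex, so the tissue label was checked no further.

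The mirtrons were set beside other hairpins in short introns. By position alone, 79 miRNA genes lie within an annotated intron of at most 150 bases, and 7 of them (8.86%) were detected. The rule takes in Mir877, Mir1224 and Mir1981 but not Mir702, whose annotated hairpin reaches into an exon. Over all 79 genes the median level was 0.658 CPM, below the value of 3 counts in either library (1.06 and 1.32 CPM). Over all 2202 genes the median level was 0 CPM, since 66.4% of these had no count in either library, against 25.3% of the 79. The detected share was higher over all 2202 genes (15.5%) than over the 79. The most abundant gene the rule picks is Mirlet7i (41516 ± 208 CPM), in an intron of the noncoding D630033A02Rik that leaves 11 and 20 bases beside its hairpin. let-7 hairpins are known to be cut by Drosha, and the rule goes by position alone.

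A stricter set held the 22 hairpins that fill their intron to the base, with introns of 67 to 137 bases. Of these, 5 were detected, namely Mir1981, Mir877, Mir1224, Mir3102 and Mir3547. Mir3102, the seed partner of Mir702, had 995 counts in replicate 1 and 1263 in replicate 2 (350 and 554 CPM, mean 452 ± 144 CPM). It lay below Mir1981 and above Mir702 in both libraries, and its difference from Mir1981 was within the summed SDs. Its ratio of replicate 1 to replicate 2 was 0.633. Mir3547, in Baiap3, had 65 and 62 counts (25.0 ± 3.04 CPM).

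The remaining 17 had at most 7 counts in replicate 1 and 6 in replicate 2, and 5 of them had none in either. Mir877, Mir1224 and Mir1981 held 59.7% of the counts of the 22 genes in replicate 1 and 56.6% in replicate 2, and Mir1981 and Mir3102 were their most abundant genes in both. Among the 196 genes from Mir6896 to Mir7094, a later-named series that contains many mirtron candidates, 4 were detected (2.04%). The highest of these was Mir7069, at 6.11 ± 0.668 CPM, about the level of Mir1224.

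**Figure D4:**
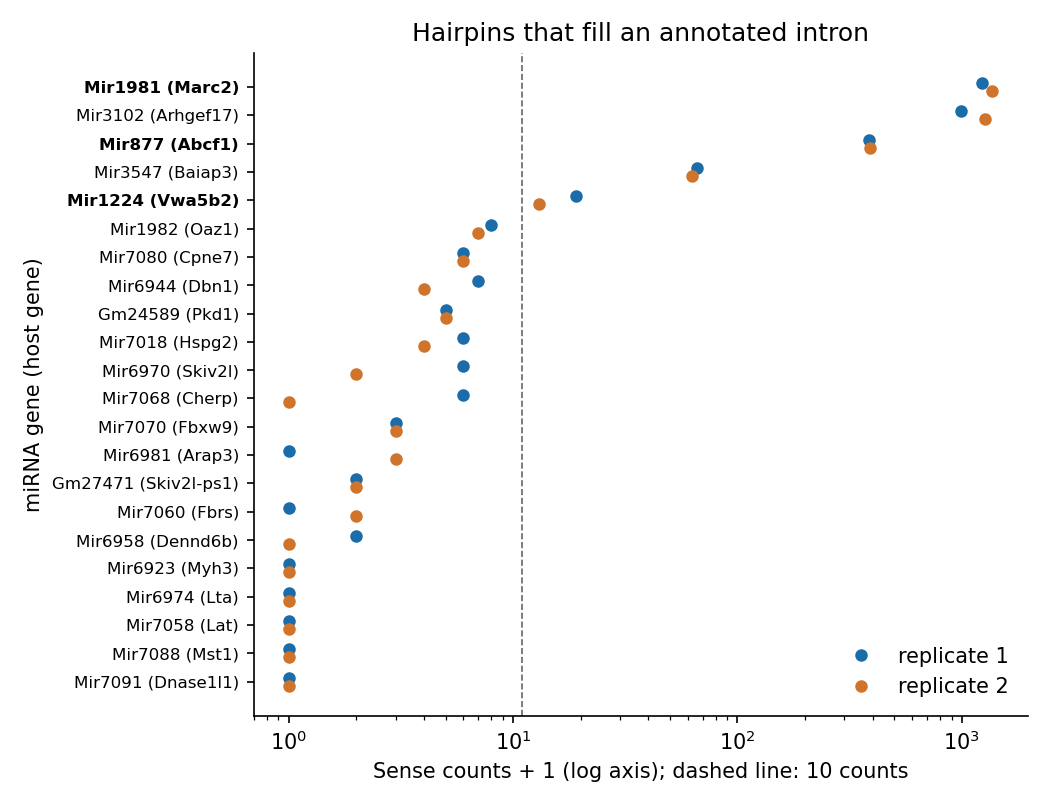
Sense counts plus 1 on a log axis in replicate 1 (blue) and replicate 2 (orange) for the 22 hairpins that fill an annotated intron, with the host gene in parentheses, bold names for Mir1981, Mir877 and Mir1224, and a dashed line at 10 counts. Only the top 5 genes pass that line in both libraries, and the other 17 have at most 7 counts.

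Position near a start site was compared in the same way for Mir320 and Mir484. Of 177 miRNA genes within 500 bases of the start of a protein-coding transcript, 29 were detected (16.4%). Mir702 is also in this group, 83 bases before the start of a shorter Plod3 transcript. Mir126a was the highest of them in both libraries. In replicate 1 Mir320 (4841 CPM) was below Mir125a (8199 CPM), while in replicate 2 Mir320 (7760.4 CPM) was above Mir125a (3341 CPM), so their order differed between the libraries. Mir423 (3624 and 2998 CPM) and Mir484 came below Mir320 in both.

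The 5 hairpins with a sequence were richer in G and C than the median of 50.5% over 297 detected hairpins. GC content was 65.1% in Mir702, 61.2% in Mir877, 60.0% in Mir1224, 58.2% in Mir484 and 53.7% in Mir1981. Predicted folding energy per base did not set them apart as a group. It was -0.504 kcal/mol in Mir1224, stronger than the median of -0.435, close to it at -0.435 in Mir702 and -0.429 in Mir877, and weaker at -0.370 in Mir1981 and -0.367 in Mir484. Mir484 was also short, with 67 bases against a median of 84, and Mir702 was long, with 109 bases.

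Other miRNA genes had similar levels in both libraries, by the distance between their log2(CPM + 1) values over the 2 libraries. Nearest to Mir320 was Mir28a (6058 ± 1185 CPM, distance 0.20), and nearest to Mir484 was Mir221 (1439 ± 481 CPM, distance 0.13). Nearest to Mir1981 was Mir181b-2, to Mir877 Mir666, to Mir702 Mir194-2 and to Mir1224 Mir5620, at distances of 0.20, 0.15, 0.06 and 0.12. The genes next above in mean level were Mir191, Mir100, Mir193b, Mir125b-2, Mir194-2 and Mir5620 for Mir320, Mir484, Mir1981, Mir877, Mir702 and Mir1224 in turn. Next below were Mir99b, Mir708, Mir497, Mir666, Mir1291 and Mir3061. All of these neighbours lay within the summed SDs of the gene they stand beside. They were picked for closeness in level, so this was likely from the start and does not measure how far ranks could move. The ranks of the 6 genes among all miRNA genes are approximate, since each differed between the libraries, as with Mir320 (35 and 28) and Mir484 (78 and 62).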

How the data were processed

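The deposited values were raw read counts per miRNA gene, in a table per sample, with an unstranded column and 1 column for each strand. The files use mm10 and GENCODE M21, per the sample information deposited with them. The aligner and counter are not given in the sources used here. The 4 rows that name no gene (69.4% and 73.7% of all reads in replicates 1 and 2) stayed out of totals and tests. Unmapped reads made up 29.8% of all reads in replicate 1 and 39.7% in replicate 2, and multimapping reads 28.8% and 25.3%. The part of these differences in the library ratios was not tested. All 2202 genes were matched to GENCODE M21 by identifier. Multimapping reads stood in a row of their own and belonged to no gene. The sense column, which had the larger total, was scaled to CPM.

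Library ratios were tested with an exact binomial test (scipy 1.17.1), checked on data simulated with counting error alone. Such data hold no spread between animals, so the check does not cover it. TMM factors came from edgeR 4.0.16 and folding energies from RNAfold 2.7.2. Genes entered the test at a mean count of at least 10. The members, lists and rules were chosen with earlier results of these data known. The genes named were the 6 members, the genes nearest to them in level, their seed partners and the 4 most abundant other genes in short introns, and genes near a start site and in intron-filling sets were named after their values were seen. No genome sequence was used here. Replicates are separate samples per the labels, and SDs measure the spread between them.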

Additional observations from a re-analysis of the deposited data

How the results depend on the processing

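No member passed the 2-fold rule under TMM or median-of-ratios scaling, unstranded counts, or other filters on low counts. Of all genes tested, 18.2% passed with TMM scaling, 18.7% with median-of-ratios scaling and 17.3% with unstranded counts. Among the 739 genes with a count in either library 10.3% passed. At 1.5-fold 2 members passed and with no fold threshold 4. Over all 369 genes tested the calls numbered 69 by the 2-fold rule, 120 at 1.5-fold and 231 with no fold threshold. Among the 234 genes averaging 100 or more counts, 33 passed the 2-fold rule (14.1%, against 18.7% of the 369). No log2 ratio of a member changed sign under these settings. With all mapped reads as the total, which is larger by construction, levels were 2751 for Mir320, 664.6 for Mir484, 226 for Mir1981, 66.6 for Mir877, 16.9 for Mir702 and 2.53 for Mir1224 per 1000000 mapped reads, and the members' share was 0.373%. With unstranded counts, whose total is smaller, Mir877 reached 178, Mir702 45.0 and Mir1224 6.73 CPM. At 20 counts in both libraries 5 of 6 members were detected, all but Mir1224, as were 307 of the 2202 genes (13.9%). Of the 79 short-intron genes 7 were detected with a limit of 150 bases. A limit of 100 gave 5 of 57 and a limit of 200 gave 7 of 86. When up to 10 hairpin bases could lie outside, 10 of 87 were detected (this last setting was chosen after seeing the data). Leaving out a replicate gives the level in the other library, as reported. No paired analysis was possible because the labels give a single group. Depth limits Mir1224 most.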
